A study of Drosophila melanogaster with 8 samples.

Results

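The vacuolar ATPase (V-ATPase) subunit genes were followed on ribosomes carrying either of a pair of paralogous large-subunit proteins, eRpL22 and eRpL22-like, in Drosophila melanogaster testis. Members were the rows of the deposited gene table whose name starts with Vha followed by a digit, A, P or M, which took 30 of the 12051 genes listed. They comprised 12 genes of the V1 sector, 16 of the V0 sector and 2 accessory genes. VhaSFD, the gene of the V1 subunit H, lies outside that naming rule. It is left out of the V1 counts and sums and is described apart. The family was chosen because Vha13 was higher in the eRpL22-like libraries, so every difference between the pulldowns below was known in part beforehand and is given as a description.

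Both pulldowns came from testes of wild-type (WT) flies aged 2 to 7 days, kept on corn-meal food, and differed in the paralogue that the antibody recognised. Testis lysates were immunoprecipitated, and the RNA was sequenced as 50-base single reads. The labels list 4 replicates for each paralogue, with no input RNA and no mock precipitate, and do not say whether the replicates are separate collections of flies. The table holds 3 eRpL22 libraries and 4 eRpL22-like libraries, and eRpL22 replicate 4 was not analysed here. P-values therefore reflect how far these libraries scatter, which could be technical scatter. Values are the authors' normalized reads, and log2 fold changes are eRpL22-like over eRpL22, taken after adding 1 to each value. They are differences of mean log2 values. For low or scattered genes they can therefore be smaller or larger than the ratio of means, or differ from it in direction. Vha16-4, for example, had a log2 fold change of -0.25 and a ratio of means of 1.33.

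V-ATPases are rotary proton pumps that use ATP to acidify endosomes, lysosomes, secretory vesicles and, at the plasma membrane of some epithelia, the outside of the cell. The V1 sector lies in the cytosol and splits ATP, and the V0 sector spans the membrane and carries the protons. Sperm development in many animals includes an acidic secretory vesicle, the acrosome, and fly testis is known to use duplicated forms of several V-ATPase subunits.

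The tissue label and the depth were checked first. Reads recovered over the listed genes numbered 15971685 to 26346787 per library. The 7 markers listed for spermatocytes and spermatids, among them Mst87F and S-Lap1, took 1.95% to 2.23% of the normalized reads with eRpL22 and 1.83% to 2.01% with eRpL22-like. Markers of Malpighian tubule, a tissue rich in V-ATPase, were Uro and Irk2, which together reached at most 0.00293% with eRpL22 and 0.000701% with eRpL22-like, and Uro was at 0 in 5 libraries. The 3 accessory gland markers, Acp36DE among them, took 0.0859% to 0.151% with eRpL22 and 0.0731% to 0.157% with eRpL22-like. The 3 muscle markers took 0.00309% to 0.0189% and 0.00591% to 0.0634%, the last in eRpL22-like replicate 4, and the lists for early germline, cyst and hub, fat body and neurons stayed at or below 0.0149% in every library. Whether RNA of these other tissues had a part in the Vha values was not tested. The 30 Vha genes together took 0.290% to 0.441% of the normalized reads of a library. In RNA pulled down from lysates of whole testes, fewer cells of a type and less RNA per cell cannot be told apart. With no input RNA, neither can RNA level and loading on these ribosomes.

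Between the pulldowns, no Vha gene passed the test in the fit over all genes. Limma with Benjamini-Hochberg adjustment called 0 of the 30, with adjusted p-values from 0.945 to 0.999, and 0 of all 11174 genes tested (0.0%). At an unadjusted p under 0.05 it gave 1 of the 30, Vha13, where the share over all genes was 4.11%. Run on whole reads recovered from the table, edgeR called 0 of the 30 and 0 of 9516 genes (0.0%), with 2 members, Vha36-1 and Vha13, at an unadjusted p under 0.05 against 3.96% of all genes. DESeq2 on the same reads called Vha13 (adjusted p = 0.0204) among 172 of 8688 genes (1.98%). In the authors' deposited table, 21 of 12051 genes (0.174%) had an adjusted p under 0.05, and none of these was a Vha gene.

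Log2 fold changes were positive for 17 of the 30 members and negative for 13, with 0.08 as their median, and over all genes tested 48.8% were positive and the median was -0.03. In the V1 sector 8 of 12 were positive with a median of 0.29, and in the V0 sector 8 of 16 with a median of -0.04. The members' median changed sign without eRpL22 replicate 1, at -0.06, and without eRpL22-like replicate 1, at -0.13. Library values of 4 members did not overlap between the pulldowns, as was the case for 5.14% of all genes tested. Vha13 and VhaM9.7-d were higher in every eRpL22-like library, a pattern that 2.38% of all genes showed, and Vha16-1 and VhaAC39-2 were lower in each, as were 2.76% of all genes. Because the family was chosen on this contrast, nothing is read from these counts.

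**Figure D1:**
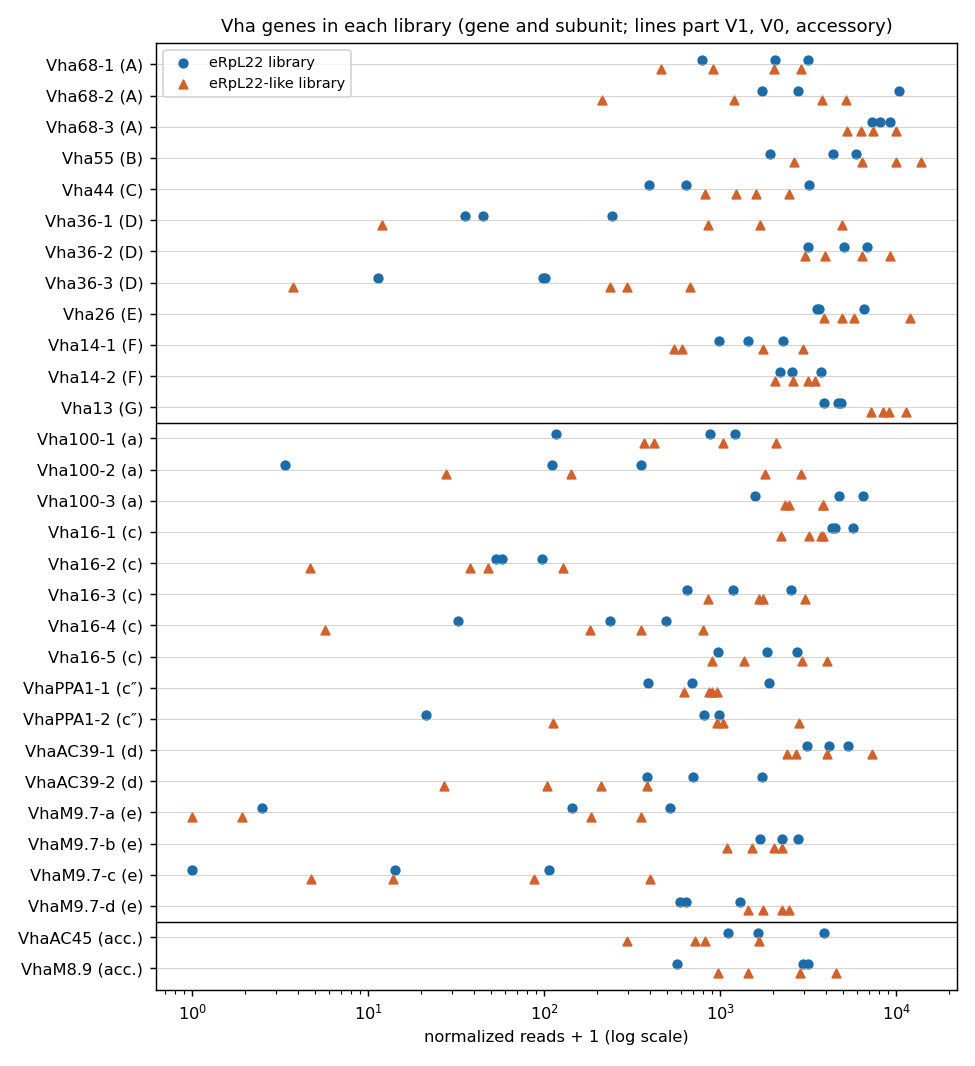
Normalized reads + 1 (x axis, log scale) of each of the 30 Vha genes (y axis, with the subunit in brackets) in the 3 eRpL22 libraries (circles) and the 4 eRpL22-like libraries (triangles). Points of Vha13 and VhaM9.7-d do not overlap, with the eRpL22-like libraries higher, and those of Vha16-1 and VhaAC39-2 do not overlap with the eRpL22-like libraries lower.

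Vha13 (FBgn0283536) encodes subunit G, a part of the peripheral stalks that hold V1 to V0, and is the sole gene of that subunit in the table. It stood at 4651, 4827 and 3859 normalized reads in eRpL22 replicates 1, 2 and 3. In eRpL22-like replicates 1 to 4 it stood at 8351, 9091, 11360.1 and 7203. The lowest eRpL22-like library was thus above the highest eRpL22 library. Means were 4446 ± 516 (SD, n = 3) against 9001 ± 1754 (SD, n = 4), a ratio of 2.02 and a log2 fold change of 1.00 with an SE of 0.34. The authors' deposited table gives a log2 fold change of 1.02. Across the other scalings, filters, tools and left-out libraries the log2 fold change stayed between 0.89 and 1.10.

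Vha13 was also the Vha gene with the smallest spread between replicates. Its within-pulldown SD averaged 15.5% of the mean, where the median was 25.6% over the 770 genes whose mean reached 5000 normalized reads. The other 4 members of that class were Vha68-3 at 20.1%, Vha36-2 at 43.0%, Vha26 at 46.4% and Vha55 at 54.1%. The last 3 lay above the upper quartile of the class, 34.0%.

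The partners of Vha13 in the peripheral stalks are subunits E and C. Vha26 (FBgn0283535), the E subunit gene, had 6539, 3520.1 and 3626 normalized reads with eRpL22 and 12008, 5742, 4891 and 3882 with eRpL22-like. The pulldowns overlapped, and eRpL22-like replicate 1 was far above the rest. The log2 fold change was 0.46, with a 95% interval from -0.37 to 1.29. Vha44 (FBgn0262511), the C subunit gene, ranged from 392 to 3178 with eRpL22 and from 814 to 2449.7 with eRpL22-like. For that gene eRpL22 replicate 2 was the highest of all 7 libraries and eRpL22 replicate 1 the lowest. For Vha44 the log2 fold change of 0.60 was -0.02 without eRpL22 replicate 1. The span of Vha44 overlaps that of Hmgs in the RefSeq annotation of the Release 6 assembly, and whether counting used strand is not given in the sources used here.

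Vha55 (FBgn0005671) encodes subunit B, which alternates with subunit A in the V1 head, and had a ratio of means close to that of Vha13 on a wider spread. Its values were 1900.2, 4344 and 5887 normalized reads with eRpL22 and 9956, 6380.1, 13784 and 2620.3 with eRpL22-like. In 3 of the 4 eRpL22-like libraries it was above every eRpL22 library, and replicate 4 was within their range. Means were 4044 ± 2010.2 (SD, n = 3) against 8185 ± 4786 (SD, n = 4), a ratio of 2.02. The log2 fold change of 0.92 had a 95% interval from -0.01 to 1.85, and ranged from 0.45 to 1.39 as each library was left out.

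**Figure D2:**
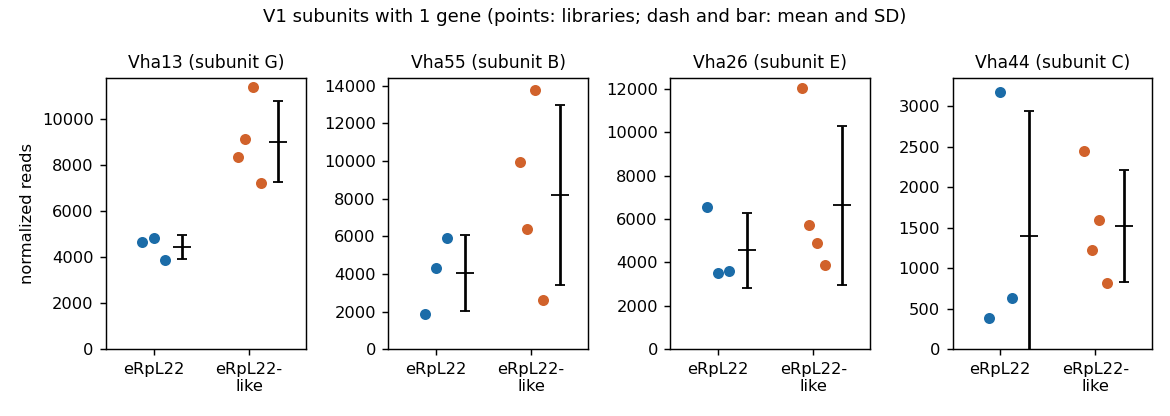
Normalized reads (y axis, linear, from 0) of the 4 V1 subunits that a single Vha gene encodes, Vha13, Vha55, Vha26 and Vha44, by pulldown. Points are libraries, and the dash and bar beside them are the mean and SD (3 eRpL22 and 4 eRpL22-like libraries; the lower bar of Vha44 with eRpL22 is cut at 0). The pulldowns are apart for Vha13, at 3859 to 4827 and 7203 to 11360.1, and overlap for the other 3 genes.

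Subunit A binds and splits ATP in the V1 head, and 3 neighbouring genes encode it: in the RefSeq order Vha68-2 and Vha68-3 are adjacent, and Yip1d1 lies between Vha68-3 and Vha68-1. Vha68-3 (FBgn0032464) had the steadiest values among them, from 7254 to 9197 normalized reads with eRpL22 and from 5260.0 to 9998 with eRpL22-like. Its log2 fold change of -0.21 had a 95% interval from -0.88 to 0.45, which lies within 2-fold either way. Vha68-2 (FBgn0263598) stood at 10379, 2746 and 1729 with eRpL22 and at 5171, 3765, 210.2 and 1189 with eRpL22-like. The highest and the lowest of these libraries differed 49.4-fold. The log2 fold change of -1.30 ranged from -1.90 to -0.36 as each library was left out. Vha68-1 (FBgn0265262) ranged from 784 to 3158 and from 459 to 2879.5, with a log2 fold change of -0.46 that was 0.02 without eRpL22-like replicate 3. Reads of near-identical stretches may be split between such copies, so the values of each are uncertain.

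Subunits D and F form the central shaft that turns inside the V1 head, and each has a gene with steadier values beside a more variable one. Of the D genes, Vha36-2 (FBgn0033706) ranged from 3139.7 to 6804 normalized reads with eRpL22 and from 3012 to 9203 with eRpL22-like. Its log2 fold change was 0.11, and it is the other member, beside Vha68-3, whose 95% interval, from -0.74 to 0.97, lies within 2-fold. Vha36-1 (FBgn0022097) was at 34.4, 43.8 and 242 with eRpL22 and at 10.9, 845, 4872 and 1673 with eRpL22-like. Thus 3 eRpL22-like libraries were above every eRpL22 library, while eRpL22-like replicate 1, with 12 reads, was the lowest of all. The ratio of means was 17.3, but the log2 fold change of 2.88 had a 95% interval from -0.63 to 6.39. Vha36-3 (FBgn0040377) showed the same order, with 10.3 to 100.2 in the eRpL22 libraries, 234 to 675 in eRpL22-like replicates 2 to 4 and 2.73, or 3 reads, in eRpL22-like replicate 1. At an SE of 2.34, its log2 fold change of 1.25 gives no direction.

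The F genes had almost equal means in both pulldowns. Vha14-2 (FBgn0037402) stood at 2816 ± 797 normalized reads in the eRpL22 pulldown (SD, n = 3) against 2807 ± 628 in the eRpL22-like pulldown (SD, n = 4). Its log2 fold change was 0.00 with a 95% interval from -1.01 to 1.02, so changes of up to about 2-fold either way were not excluded. Vha14-1 (FBgn0262512) had means of 1558 ± 644 (SD, n = 3) against 1459 ± 1133 (SD, n = 4). Of its eRpL22-like libraries, replicate 1, at 2943, was above the range of the eRpL22 libraries, 983 to 2253, replicate 4, at 1744, was inside it, and replicates 2 and 3, at 606 and 544, were below it.

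In the V0 sector, subunit a is the large membrane protein past which the rotor carries protons, and 3 of its genes were in the table. Vha100-3 (FBgn0028669) stood at 4239 ± 2483 normalized reads in the eRpL22 pulldown (SD, n = 3) against 3111 ± 830.5 in the eRpL22-like pulldown (SD, n = 4), with a log2 fold change of -0.26. Vha100-2 (FBgn0028670) had 354, 110.1 and 2.38 with eRpL22 and 1795, 2879, 141 and 26.8 with eRpL22-like. Replicates 1 and 2 of the eRpL22-like pulldown were above all other libraries, and the 2.38 of eRpL22 replicate 3 stood for 3 reads. Its log2 fold change of 2.89 had a 95% interval from -1.09 to 6.86 and was 0.93 to 4.29 as each library was left out. Vha100-1 (FBgn0028671), the form known from synapses, ranged from 115 to 1203 and from 367 to 2073. The spans of all 3 of these genes overlap another gene in the RefSeq annotation (Alg13, Vti1b and sano), so some of their reads may be shared.

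The c and c-double-prime proteolipids form the membrane ring that turns with the shaft. Vha16-1 (FBgn0262736) had 4489.7, 4286 and 5662 normalized reads with eRpL22 and 3844, 2212, 3173 and 3708 with eRpL22-like. Every eRpL22-like library was below every eRpL22 library. Means were 4812 ± 742 (SD, n = 3) against 3234 ± 741 (SD, n = 4), 1.49-fold lower with eRpL22-like, and the log2 fold change of -0.59 had a 95% interval from -1.47 to 0.29. Left-out libraries moved it between -0.69 and -0.42. Of the other c genes, Vha16-3 ranged from 644 to 3034 and Vha16-5 from 891 to 4053 over the 7 libraries, Vha16-4 from 4.67 to 799.6 and Vha16-2 from 3.64 to 126. All 4 overlapped between the pulldowns. In the RefSeq order an annotated antisense RNA lies between Vha16-2 and Vha16-3 and overlaps the former.

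Both c-double-prime genes overlapped as well, and they differed in which library was extreme. VhaPPA1-1 (FBgn0028662) had 1878, 684 and 389 normalized reads with eRpL22 and 618 to 955 with eRpL22-like. VhaPPA1-2 (FBgn0262514) had 810.3, 20.4 and 984 with eRpL22 and 1038, 111, 2801 and 958 with eRpL22-like. Its 2 low libraries were replicate 2 of each pulldown. The log2 fold change of VhaPPA1-2, 1.54, was -0.26 without eRpL22 replicate 2. The span of VhaPPA1-2 overlaps that of CG3817 in the RefSeq annotation, so some of its reads may be shared.

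Subunit d joins the ring to the central shaft. VhaAC39-1 (FBgn0285910) stood at 4183 ± 1114 normalized reads in the eRpL22 pulldown (SD, n = 3) against 4103 ± 2252 in the eRpL22-like pulldown (SD, n = 4), with a log2 fold change of -0.14. VhaAC39-2 (FBgn0039058) was at 1725, 694 and 383 with eRpL22 and at 102, 209.8, 382 and 26.02 with eRpL22-like. The groups did not overlap, but eRpL22 replicate 3 and eRpL22-like replicate 3 lay close together, at 383.10 against 382.16. Means were 934 ± 703 (SD, n = 3) against 180.0 ± 154 (SD, n = 4), 5.19-fold lower with eRpL22-like, with a log2 fold change of -2.66 and a 95% interval from -5.59 to 0.27.

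The small membrane subunit e has 4 genes in the table. VhaM9.7-d (FBgn0038458) was at 586, 637 and 1295 normalized reads with eRpL22 and at 2231, 2454, 1429.6 and 1742 with eRpL22-like. Each eRpL22-like library exceeded each eRpL22 library, by the least for eRpL22-like replicate 3 and eRpL22 replicate 3. Means were 839.5 ± 395 (SD, n = 3) against 1964 ± 464 (SD, n = 4), a ratio of 2.34, and the log2 fold change of 1.29 had a 95% interval from -0.12 to 2.70. VhaM9.7-b (FBgn0028663) had 2221 ± 533 (SD, n = 3) against 1715 ± 514 (SD, n = 4), with a log2 fold change of -0.40. VhaM9.7-a and VhaM9.7-c ranged from 0 to 519.5 and from 0 to 398. From counting error alone, a listed 0 leaves room for up to 3 reads, which is 2.24 normalized reads in the library where a read is worth least and 4.49 where it is worth most. The 95% intervals of VhaM9.7-a and VhaM9.7-c, from -7.55 to 4.33 and from -4.03 to 7.55 on the log2 scale, give no direction. In the RefSeq annotation the span of VhaM9.7-c overlaps those of CG18675 and Teh2, so some of its reads may be shared.

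The 2 accessory genes encode membrane proteins that associate with V0. VhaAC45 (FBgn0262515) had 1102, 3895 and 1630.0 normalized reads with eRpL22 and 294, 818, 716 and 1645 with eRpL22-like. Replicates 1 to 3 of the eRpL22-like pulldown were below every eRpL22 library, and replicate 4 was just above eRpL22 replicate 3. The mean was 2.54-fold lower with eRpL22-like, with a log2 fold change of -1.39 and a 95% interval from -2.98 to 0.21. VhaM8.9 (FBgn0037671), whose mammalian counterpart is ATP6AP2, ranged from 562 to 3123 and from 965 to 4553, with a log2 fold change of 0.25.

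**Figure D3:**
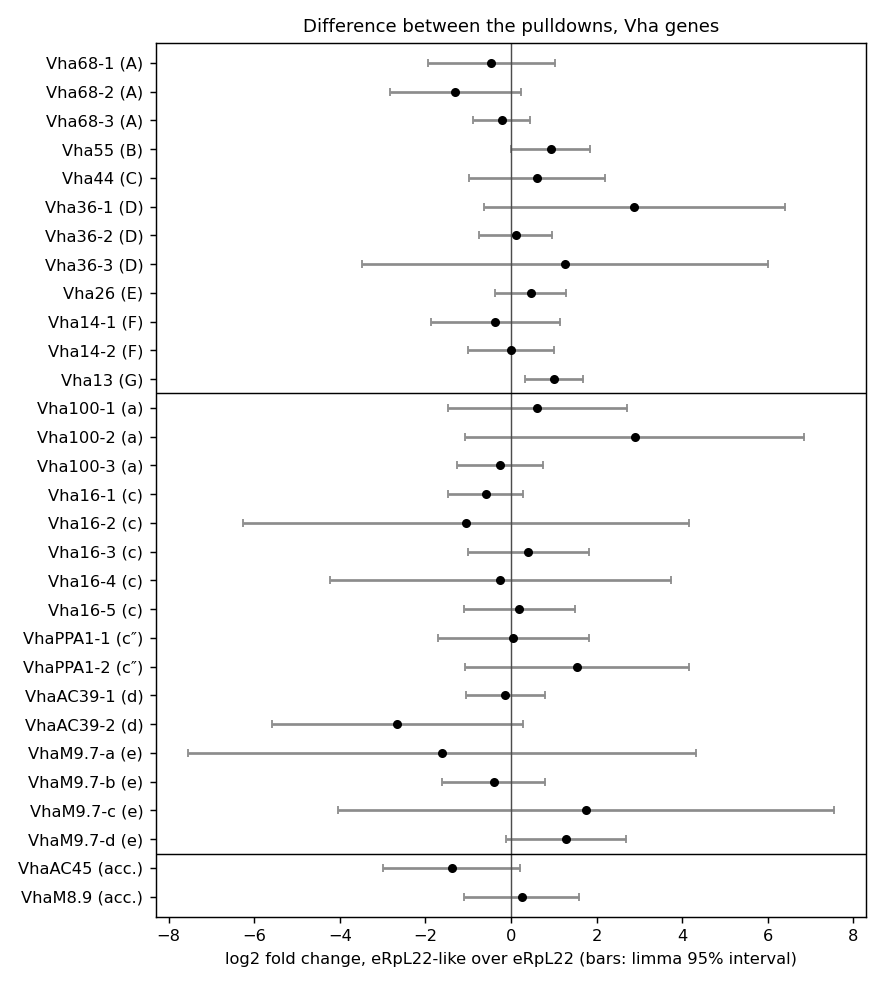
Log2 fold change of each Vha gene (x axis, eRpL22-like over eRpL22, on the log2(normalized reads + 1) scale), with bars for the limma 95% interval from 3 eRpL22 and 4 eRpL22-like libraries. The interval of Vha13, 0.32 to 1.69, lies above 0, that of Vha55 reaches -0.01, and intervals are widest for the low genes VhaM9.7-a, VhaM9.7-c and Vha16-2. Intervals are not adjusted for the number of genes tested, and the limma adjusted p of Vha13 was 0.945. The family was chosen because Vha13 differed in this contrast, so nothing is read from its interval.

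For the 8 subunits with several genes in the table, the share of a subunit's reads that came from each gene was followed across libraries. These are shares of reads, not of molecules, because transcript lengths were not used here, and a share of one gene cannot be set against that of a longer or shorter one. Each share is therefore followed only from library to library. VhaAC39-1 ranged from 64.3% to 99.4% of subunit d reads over the 7 libraries. Ranges were wider for Vha68-3 in subunit A (34.9% to 91.6%), Vha36-2 in D (36.8% to 99.9%), Vha14-2 in F (46.8% to 85.3%) and Vha100-3 in a (38.8% to 93.2%).

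Of the 24 gene shares, that of VhaM9.7-d did not overlap between the pulldowns. Library values did not overlap for 5.14% of all genes tested, and those of VhaM9.7-d were among them, so nothing further is read from its share. VhaM9.7-d made up 17.5%, 21.1% and 35.9% of subunit e reads with eRpL22 and 49.9%, 57.9%, 56.7% and 38.5% with eRpL22-like. Means were 24.9% ± 9.74 (SD, n = 3) against 50.8% ± 8.87 (SD, n = 4), with VhaM9.7-b at 67.6% ± 18.6 (SD, n = 3) against 43.4% ± 5.83 (SD, n = 4). For subunit D the eRpL22 libraries lay close together and the eRpL22-like libraries far apart. Vha36-2 held 95.9%, 97.3% and 96.4% of D reads with eRpL22 and 99.9%, 85.6%, 36.8% and 62.5% with eRpL22-like, where Vha36-1 reached 59.6% in replicate 3. In the c-double-prime pair the share of VhaPPA1-2 ran from 2.89% to 75.8%, with low and high libraries in both pulldowns.

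**Figure D4:**
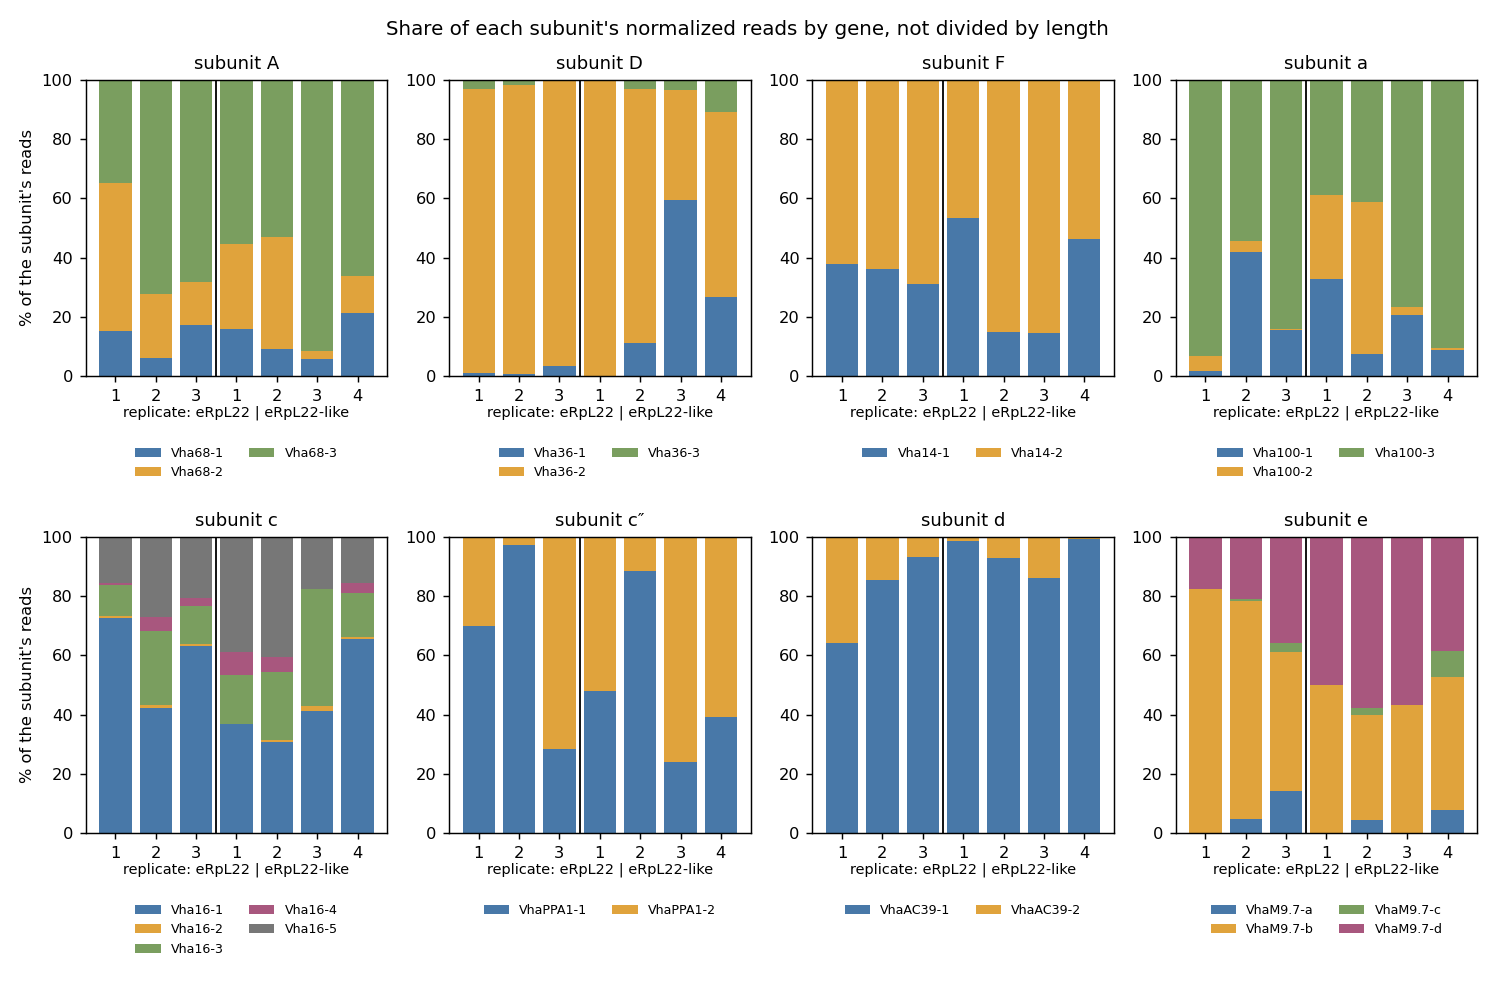
Share of each subunit's normalized reads (y axis, percent, not divided by transcript length) from each of its genes, in eRpL22 replicates 1 to 3 (left of the line) and eRpL22-like replicates 1 to 4 (right of it). VhaM9.7-d takes 17.5% to 35.9% of subunit e with eRpL22 and 38.5% to 57.9% with eRpL22-like, and VhaPPA1-2 ranges from 2.89% to 75.8% of its pair.

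Summed over the 12 V1 genes, normalized reads were 43513, 37749 and 36037 with eRpL22 and 65564, 43919, 51518 and 34020.1 with eRpL22-like, a ratio of means of 1.25 with overlapping libraries. Without Vha13 the ratio was 1.15. Without eRpL22-like replicate 1 the V1 ratio was 1.10. The 16 V0 genes summed to 23580 ± 1882 (SD, n = 3) against 23321 ± 4923 (SD, n = 4), a ratio of 0.989. The V1 sum divided by the V0 sum was 1.43 to 1.81 with eRpL22 and 1.70 to 2.37 with eRpL22-like, and the pulldowns overlapped through eRpL22-like replicate 4. VhaSFD, the V1 gene outside the naming rule, is not in these sums. Its mean was lower with eRpL22-like, at 2703 against 5118 with eRpL22, so adding it would lower the V1 ratio.

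Spread between replicates of a pulldown was set beside that of other genes of the same level. For 15 members with a mean of 1000 to under 5000 normalized reads, the within-pulldown SD had a median of 58.3% of the mean, against 48.0% over the 2713 genes of that class. For 8 members at 100 to under 1000 it was 85.8%, against 103.8% over 5090 genes, and for 2 members at 10 to under 100 it was 106% against 159% over 2601 genes. For the 5 members at 5000 or more it was 43.0%, against 25.6% over 770 genes. The highest and lowest libraries differed over 10-fold for 12 of the 30 members and for 69.2% of all genes tested. That share is not matched for level, and 20 of the 30 members had a mean of at least 1000, so the 2 are not compared. Vha68-2, at 92.0%, and Vha36-1, at 112%, were the members farthest above the median of their class, and Vha16-1, at 19.2%, was the steadiest of its class among the Vha genes.

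**Figure D5:**
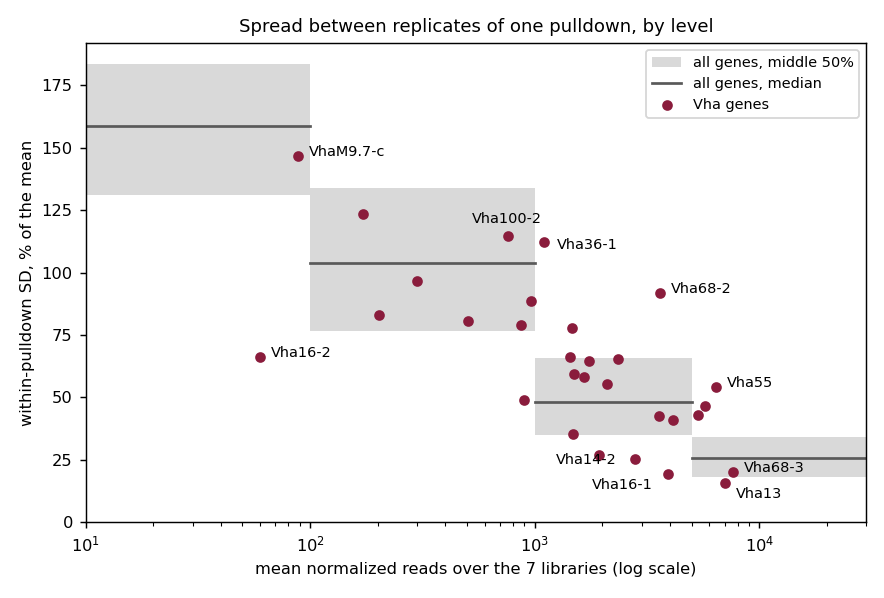
Within-pulldown SD as percent of the mean (y axis, averaged over the pulldowns) against the mean over the 7 libraries (x axis, log scale) for the Vha genes (points), with the median (line) and middle 50% (band) of all genes in 4 classes of level. Vha13, at 15.5%, and Vha68-3, at 20.1%, lie below the median of their class, 25.6%, and Vha55, at 54.1%, above its band.

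The library with the extreme value differed from member to member. Of the 30 members, 9 had their highest value in eRpL22-like replicate 1, among them Vha26, Vha36-2, VhaAC39-1 and VhaM8.9, where 17.4% of all genes did. Another 7 had it in eRpL22 replicate 1, among them Vha68-2, Vha100-3 and VhaAC39-2, where 16.8% of all genes did. For 6 members, Vha13 and Vha55 included, it was in eRpL22-like replicate 3, beside 16.3% of all genes. Lowest values fell in eRpL22-like replicate 3 for 8 members, where 16.1% of all genes had theirs, and in eRpL22 replicate 1 for 7, where the share over all genes was 23.0%.

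Of genes around the pump, a list of subunit H, assembly and regulation had 5 members in the table, of 6 listed, and 0 passed limma. Among the 5, 3 log2 fold changes were positive and 2 negative, and the median was 0.01. VhaSFD (FBgn0027779), the H subunit that controls coupling of V1 to V0, stood at 6184, 6681 and 2489.8 normalized reads with eRpL22 and at 3722, 1299, 3086 and 2705 with eRpL22-like. Its means were 5118 ± 2289.8 (SD, n = 3) against 2703 ± 1026 (SD, n = 4), with overlapping libraries and a log2 fold change of -0.89, so its mean difference had the opposite sign to that of Vha13. The TLDc-domain gene mtd was at 2139 ± 876 (SD, n = 3) against 2149 ± 792 (SD, n = 4), and Rbcn-3B, a partner of the complex that assembles V1 on V0, at 88.8 ± 90.7 (SD, n = 3) against 947 ± 1389.8 (SD, n = 4).

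Genes of the lysosome and other acidic organelles, which the pump serves, had 20 of 23 listed members in the table, of which 18 passed the filter on low values and 0 passed limma. Of these, 11 were positive and 7 negative, with a median log2 fold change of 0.10. The cathepsin gene CtsB1 stood at 3196 ± 1413 normalized reads in the eRpL22 pulldown (SD, n = 3) against 6858 ± 6662 in the eRpL22-like pulldown (SD, n = 4), where replicate 1 reached 16085. The cathepsin genes cathD, at 5256 ± 1877 (SD, n = 3) against 5079 ± 751 (SD, n = 4), and Cp1, at 4303 ± 868 (SD, n = 3) against 4344 ± 643 (SD, n = 4), had log2 fold changes of 0.01 and 0.02.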

How the data were processed

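The deposited table gives, per the file headers, the authors' normalized expression (a signal) for 7 libraries, their log2 fold change, Wald statistic (a score), p-value and adjusted p-value. Tools named in the submitters' processing notes are STAR, Trim Galore with cutadapt, and DESeq2. The sources used here give no genome build, annotation, read counter or strand use, so no coordinates are printed. In every library the deposited signal was whole reads divided by 1 factor (100% whole at a relative tolerance of 1e-06). Columns were matched to samples by pulldown and replicate number, and 0 per-sample columns stayed unused. The main test was limma 3.58.1 (R 4.3.3) with an empirical Bayes trend, two-sided, on log2(normalized reads + 1), for genes with a mean of at least 10, which kept 11174 and all 30 Vha genes. edgeR 4.0.16 and DESeq2 1.42.0 were run on the recovered reads, and DESeq2's filters gave no adjusted p for 3363 genes. The limma and edgeR fits were run on simulated counts. Those counts scattered less between replicates than most genes here, so they do not show what the fits can detect in these libraries. Depth was 15971685 to 26346787 reads per library, and floors cover counting error only. Python 3.11.15, pandas 2.3.3 and matplotlib 3.10.9 were used for summaries and figures. Of the members, 29 matched a RefSeq symbol (GCF_000001215.4, Release 6) and were placed by neighbour only. The members and gene lists were chosen with earlier results of these data known. By rule, all members are named, with VhaSFD and the 3 genes of highest mean from each further list, and lists of testis and other tissue markers served as checks. Levels per kilobase were planned, and shares of reads without length are given instead.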

Additional observations from a re-analysis of the deposited data

How the results depend on the processing

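The number of genes called over the whole table was 0 by limma, 1 with quantile normalization and 172 with DESeq2 on the recovered reads, and the number of Vha genes called was 0, and 1 (Vha13) with DESeq2. The cause was not tested. Under the other alternatives, which were pseudocounts of 0.5 and 5, no filter or a minimum mean of 100, library totals, TMM scaling, edgeR, the replicate block and each library left out, both counts stayed at 0. Of the 30 members, 17 kept the sign of their log2 fold change under every alternative run, and 13 took the other sign under at least 1. The 17 included Vha55, and also VhaM9.7-a and VhaM9.7-c, which came as close to 0 as -0.01 and 0.001. Vha13, Vha16-1, VhaAC39-2 and VhaM9.7-d were among the 17 too. Their libraries do not overlap, so leaving out a library could not change their sign. The share over all genes is not given here, so nothing is read from this count. Without each library in turn, the members' median ranged from -0.13 to 0.24, the number of positive members from 12 to 19, the log2 fold change of Vha13 from 0.89 to 1.10, the V1 ratio from 1.10 to 1.37 and the V0 ratio from 0.886 to 1.04. Between libraries of the same replicate number, deviations from the group means correlated at 0.01, 0.02 and 0.01 for numbers 1, 2 and 3. Low genes scatter widely between replicates, so these values cannot show whether the numbers pair the libraries. With the replicate block, the log2 fold change of Vha13 was 1.10, the members' median 0.21 and calls 0. In that fit eRpL22-like replicate 4 had no eRpL22 partner, so the log2 fold changes are those obtained without that library. Library totals moved the median of all genes by 0.10. Shares per kilobase were not run, since no transcript lengths were used. Few reads limited VhaM9.7-a, VhaM9.7-c, Vha36-3 and Vha100-2, each with a library at 3 reads or fewer.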
